A study of Mus musculus with 12 samples.

Results

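Intermediate progenitors of the excitatory lineage were sought among single nuclei of the newborn mouse forebrain by the transcripts of Eomes, Neurog2, Sstr2 and Sox11. Of 101802 nuclei that passed a filter on quality, 90 met the rule and are called Eomes-rule nuclei here. A nucleus was taken when it held 800 to 6000 unique molecular identifiers (UMIs, tags that each mark 1 captured RNA molecule), 300 to 3000 genes and at most 1% mitochondrial UMIs. It further needed at least 2 UMIs over Eomes, Neurog2 and Sstr2 together, at least 1 UMI of Sox11, no UMI of Gad1 or Gad2 and at most 1 UMI over Tmem132d and Cdhr1, the last pair set to keep olfactory bulb cells out. The rule used the readout itself, so the values of these 8 genes describe the choice and are not results.

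Mice on a C57BL/6 background were taken at postnatal day 1 (P1). Of these, 8 were wild-type (WT) and 4 were heterozygous (Het) for Myt1l S710fsX, a frameshift in a neuronal zinc finger factor. Both groups came from the same line, each library came from 1 animal, and WT 6, WT 7, WT 8 and Het 4 were female while the other 8 libraries were male. The study drew its P1 animals from 4 litters. The labels do not tie libraries to litters, so the tests here treat libraries as independent and could not account for litter. The labels name forebrain as the tissue, whereas the study's methods in 1 place name prefrontal cortex, which leaves uncertain how much was dissected. Filtered nuclei per library numbered 4799 to 11750, and 0 barcodes were shared between libraries.

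In the developing cortex, radial glia at the ventricle divide to give intermediate progenitors, which divide further in the subventricular zone and give excitatory neurons. Eomes, also called Tbr2, is the T-box factor that defines this step, and Neurog2, a proneural factor, acts just before it. Neurod1 and the neuronal programme follow. At birth most cortical neurons have formed, and the remaining Eomes cells are found in the late subventricular zone, the hippocampal dentate region and the olfactory bulb.

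Eomes carried most of the choice. A UMI of Eomes was present in 82 of the 90 nuclei, of Neurog2 in 18 and of Sstr2, a somatostatin receptor, in 14. Eomes alone admitted 60 nuclei, Eomes with Neurog2 another 15, Eomes with Sstr2 6, Sstr2 alone 6, and the remaining 3 nuclei held other combinations. The sum of the 3 genes was 2 in 68 nuclei, 3 in 17 and 4 to 6 in the last 5. Neurod1, the marker of this class that the rule left out, was rare, with UMIs in 7 of 90 nuclei (34.2 CPM, its UMIs scaled to a total of 1000000 per summed set, against 11.6 CPM in young excitatory nuclei). Insm1, which drives the delamination of progenitors, was found in 9 nuclei (57.0 CPM against 6.99 CPM in young excitatory nuclei).

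The background of the rule was read from inhibitory nuclei. Nuclei with at least 2 UMIs over Gad1 and Gad2, the enzymes that make GABA, should lack Eomes. Of the 4411 such nuclei that met the criteria on Sox11, Tmem132d and Cdhr1, 15 also reached a sum of 2 over Eomes, Neurog2 and Sstr2, which is 0.340% (exact 95% binomial interval 0.190 to 0.560%). Among the 26724 nuclei without Gad1 and Gad2 UMIs the 90 Eomes-rule nuclei made up 0.337% (0.271 to 0.414%). The median depth was 3018 UMIs in the 15 nuclei and 1635.5 UMIs in the 90. A single Eomes UMI was present in 0.589% of the 11206 Gad nuclei (median depth 2564 UMIs) and in 0.834% of nuclei without Gad UMIs (median depth 1931 UMIs). At raw depth the share of Eomes-rule nuclei was therefore not above that in the deeper Gad nuclei.

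At matched depth the order changed. With each nucleus thinned to 800 UMIs, a comparison added after the data had been seen, 28 of 13238 nuclei without Gad UMIs that met the Sox11 and olfactory criteria reached a sum of 2 (0.212%, 0.141 to 0.306%). Of the 1940 such Gad nuclei, 2 did (0.103%, 0.0125 to 0.372%), and these intervals overlap. At least 1 UMI of the 3 genes was found in 1.34% (1.15 to 1.55%) of the former and 0.412% (0.178 to 0.811%) of the latter, and an Eomes UMI in 0.445% of all 79634 nuclei without Gad UMIs and 0.178% of the 11206 Gad nuclei. These genes are the rule's own, the nuclei were pooled over 12 libraries, and the shares are given as a description. In raw UMIs not all libraries shared this order, as an Eomes UMI was found in 0.450% of all filtered nuclei and 0.996% of Gad nuclei in WT 2, and in 0.755% and 0.972% in WT 5. The share is not read as the abundance of a cell type. These intervals cover counting error only.

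The 15 Gad nuclei were set beside the 4350 Gad nuclei with none of the 3 admitting genes, as a description. Gad2, part of the choice of both, stood at 684 and 742 CPM. Erbb4 and Nrxn3, which the choice did not use, stood at 3735 against 6975 CPM and 8404 against 13667 CPM. Dcc stood at 6521 CPM in the 15 against 2727 CPM, Gm29260 at 1654 CPM against 162 CPM, and Unc5d at 2491 CPM against 916 CPM. Sox6 stood the other way, at 399 against 813 CPM. The part of mixed barcodes in this was not tested. Of the 90 Eomes-rule nuclei, 4 were marked as doublets (4.44%), near the 4.20% of all filtered nuclei.

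What the Eomes-rule nuclei shared beyond the rule was described first against all other filtered nuclei, without a test. The 20 genes outside the rule with the largest difference, taken as the median over libraries of log2(CPM + 20) and among genes of at least 50 CPM, were led by Gm29260, a long noncoding RNA gene of chromosome 1 (3.35 on the log2 scale). They also held the guidance receptors Dcc and Unc5d, the secreted guidance cue Sema3c, the laminin chain Lama2, the vesicular glutamate transporter Slc17a6, the planar polarity gene Celsr1, the neuritin gene Nrn1, Heg1, Igfbpl1, Mir99ahg and Gm11266. Chromatin and replication genes were among them too, with Chd7, Cecr2 and Atad2, together with Zfhx4, Ankrd6, Dleu2, C130023A14Rik and Gm37606. Gm11266 is annotated as antisense, and the sources used here do not say whether counting used strand.

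Gm29260 (GRCm38 chr1:41781808-41939560, plus strand) was found in 67 of 90 Eomes-rule nuclei, which is 74.4%, and in 30.2% of young excitatory nuclei. Its level in the summed Eomes-rule nuclei of the WT libraries 1 to 8 was 2459, 2740, 2212, 1159, 3037, 1132, 6846 and 3518 CPM, and 2858, 4042, 2435 and 1733 CPM in Het libraries 1 to 4. Other filtered nuclei held 179 to 267 CPM, so the lowest library of Eomes-rule nuclei was above the highest library of the rest. The difference was smaller from the cycling nuclei described below, at log2 1.16 (edgeR adjusted p = 0.000451), than from young excitatory nuclei, at log2 3.69. WT 7, with 3 Eomes-rule nuclei, was the highest of all.

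Dcc (chr18:71253634-72351069, minus strand), the receptor for the guidance cue netrin, was found in 87 of 90 nuclei. In WT libraries 1 to 8 it stood at 9314, 18993, 19903, 2705, 3471, 14717, 6846 and 12546 CPM, and in Het libraries 1 to 4 at 15455, 10021, 14444 and 10024 CPM. The lowest values came from WT 4 and WT 5, which held 2 Eomes-rule nuclei each, and even these lay above the 1745 to 2659 CPM of other nuclei. Lama2 was uneven by contrast, with 0 CPM in WT 3, WT 4 and WT 5 and 1369 CPM in WT 7. Het 3, with 25 of the 90 nuclei, held Lama2 UMIs in 19 of its 25 nuclei, against 24 of the 65 nuclei of the other libraries.

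To place the Eomes-rule nuclei between the dividing and the neuronal state, they were compared with 2 other sets of nuclei in the same libraries. Young excitatory nuclei, 2337 in all, held at least 2 UMIs over Neurod2 and Neurod6, at least 1 of Sox11 and none of the 3 admitting genes. Cycling nuclei, 1284 in all, held at least 2 UMIs over Mki67 and Top2a and fewer than 2 over the admitting genes. Both sets held no Gad1 or Gad2 UMI and at most 1 UMI over Tmem132d and Cdhr1. Apart from these exclusions, cycling nuclei were not chosen by lineage. Radial glial genes summed to 6871 CPM in them (1726 CPM in other nuclei), vascular and fibroblast genes to 605 (215), oligodendrocyte-lineage genes to 250 (105) and microglial genes to 147 (38.4). Inhibitory genes were lower, at 1768 (3843), which the exclusion of Gad1 and Gad2 UMIs partly set. Differences from this set can reflect cell type as well as division, and their parts were not tested. UMIs were summed per library and set, and edgeR's quasi-likelihood test was fitted with library as block on genes of at least 100 CPM on average. A gene could pass this filter by being high in 1 set alone, so counts over the tested genes of a list are descriptions and support no direction. A gene below 100 CPM in 1 set could be tested only if it was above 100 CPM in the other. For such genes, the filter partly set the direction, and the test is given as a description. Top2a, Gli3, Myt1, Chd7, Sox6, Sema3c and Slc17a6 are among them. Genes of each set's rule were left out or are given without a test. These comparisons were added after the data had been seen, and both use the same 90 nuclei.

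Against young excitatory nuclei, 639 of 1926 genes were called, 348 higher and 291 lower (33.2% in all, 18.1% higher and 15.1% lower). The median over all genes was 0.22 on the log2 scale, and with TMM scaling the split was 163 higher and 428 lower, so small differences take their sign from the scale. Against cycling nuclei, 356 of 2180 genes were called, 160 higher and 196 lower (16.3% in all, 7.34% higher and 8.99% lower), with a median of -0.04. TMM scaling gave 109 higher and 295 lower. Of 1791 genes tested in both, 75 were higher in Eomes-rule nuclei than in either set, 19 lower than in either, 16 above young but below cycling nuclei, and 14 below young but above cycling nuclei.

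**Figure D1:**
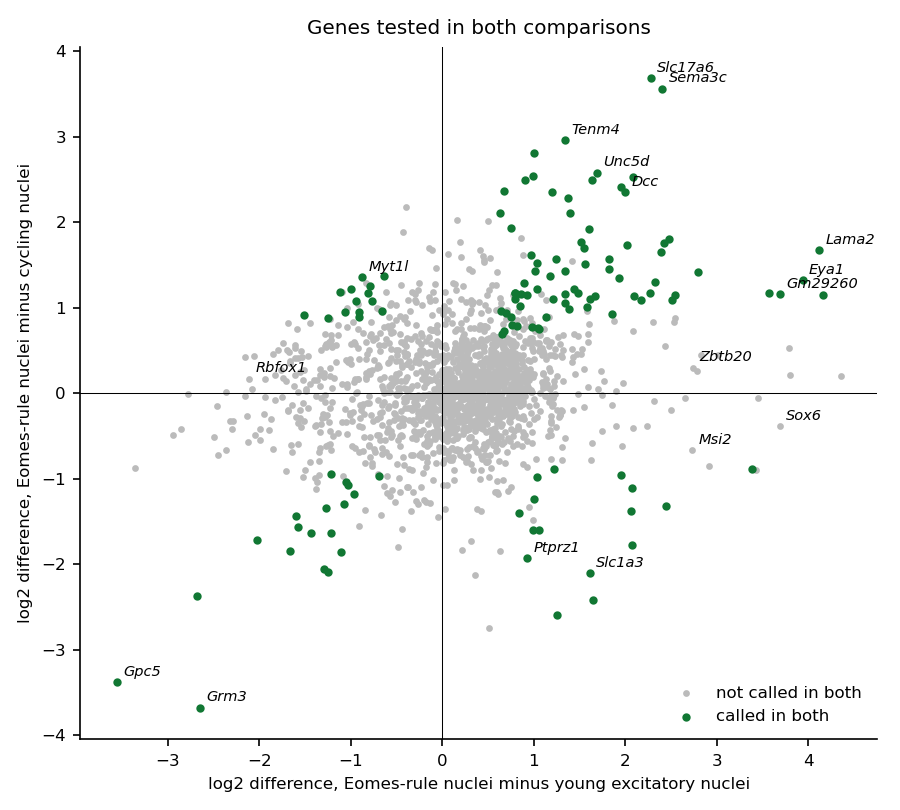
Each point is 1 of 1791 genes tested in both comparisons, with the log2 difference from young excitatory nuclei on the x axis and from cycling nuclei on the y axis, and green points were called in both. Sema3c, Slc17a6, Dcc and Unc5d lie at the upper right, Gpc5 and Grm3 at the lower left, Slc1a3 and Ptprz1 at the lower right, and Myt1l at the upper left.

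Myt1l, the gene carrying the mutant allele, lay between the dividing and the neuronal set. This placement is partly set by choosing young excitatory nuclei on Neurod2 and Neurod6 and cycling nuclei on Mki67 and Top2a. Median depth was 1635.5 UMIs in Eomes-rule and 3051 UMIs in young excitatory nuclei, so shares of nuclei with a UMI favour the latter. Myt1l was found in 54 of 90 Eomes-rule nuclei (60.0%) and in 96.7% of young excitatory nuclei. It stood at 983 CPM in the former, 1845 CPM in the latter and 419 CPM in cycling nuclei. The log2 difference was -0.88 from young excitatory nuclei (SE 0.26, edgeR adjusted p = 0.0080) and 1.36 from cycling nuclei (SE 0.25, adjusted p = 4.86e-05). Eomes-rule nuclei were lower than young excitatory nuclei in 11 of 12 libraries and higher than cycling nuclei in 11 of 12. The exceptions were WT 6 in the first case, and WT 7, whose 3 nuclei held no Myt1l UMI, in the second. Myt1, its close relative, went the other way against young excitatory nuclei, with 256 CPM against 32.2 CPM (log2 2.79, SE 0.43, adjusted p = 1.67e-06). It was also above cycling nuclei (88.5 CPM, log2 1.42, adjusted p = 0.0312), a call that was lost without WT 7 (log2 1.10, adjusted p = 0.0740), WT 8 (1.44 and 0.0542), Het 3 (1.19 and 0.111) or Het 4 (1.28 and 0.0880).

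Of 15 further intermediate progenitor genes, only Sema3c and Lzts1 passed the filter on low values, and the other 13 were not tested. In all 90 nuclei 4 of the 15 were at 0, and 61 of the 90 held a UMI of the list. The list summed to 940 CPM, with 0 to 1509 CPM in WT and 754 to 1051 CPM in Het libraries. Sema3c stood at 445 CPM in Eomes-rule nuclei, 91.3 CPM in young excitatory nuclei and 39.4 CPM in cycling nuclei (log2 2.40, SE 0.40, adjusted p = 7.61e-05, and log2 3.56, SE 0.44, adjusted p = 8.34e-07). At these low values in the other sets, the filter partly set the direction for Sema3c. Lzts1, which acts in the detachment of differentiating cells, was higher by log2 1.56 and 1.51 (adjusted p = 0.000462 and 0.00341). Slc17a6, used by young glutamatergic neurons, was higher by log2 2.28 and 3.68, with UMIs in 32 of 90 nuclei. It was listed at 0 in WT 5, WT 7 and WT 8.

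Of 27 migration and guidance genes tested, 7 were higher and 7 lower than in young excitatory nuclei, and 11 higher and 1 lower than in cycling nuclei. Over all genes tested, 18.1% were higher and 15.1% lower in the first comparison, and 7.34% and 8.99% in the second. Dcc was higher by log2 2.00 (SE 0.27, adjusted p = 1.17e-07) and 2.36 (SE 0.27, adjusted p = 4.33e-10), in 12 of 12 libraries each time. Unc5d, which marks the multipolar stage of migrating cortical neurons, was higher by log2 1.69 and 2.58 (adjusted p = 1.61e-06 and 2.38e-12). Lrp8, a receptor for reelin, was higher by 1.44 and 1.22. Dab1, which passes on the reelin signal inside the cell, was lower than in young excitatory nuclei (log2 -1.83, adjusted p = 5.38e-06) and Robo2 higher than in cycling nuclei (1.43, adjusted p = 3.09e-05).

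**Figure D2:**
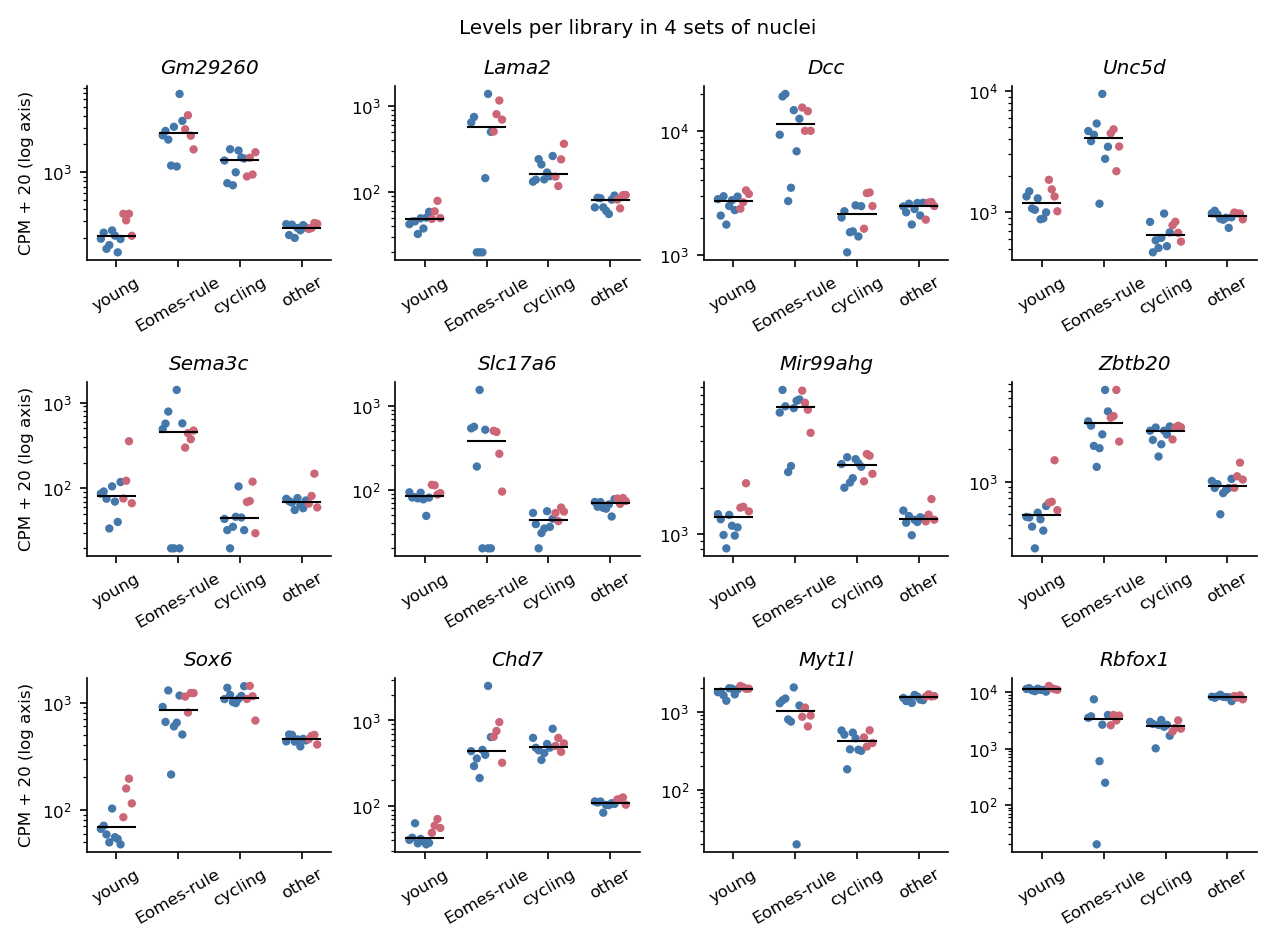
Points are CPM plus 20, on a log axis, of 12 genes in the summed nuclei of each library (WT blue, Het red), in young excitatory, Eomes-rule, cycling and all other nuclei, with the median as a line. Gm29260, Dcc, Unc5d and Mir99ahg were highest in Eomes-rule nuclei by median, Zbtb20, Sox6 and Chd7 stood near the cycling nuclei, and Myt1l lay between young and cycling nuclei.

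Of 16 radial glial genes, 3 passed the filter against young excitatory nuclei and 6 against cycling nuclei, so the values here describe single genes and not the list. Gli3, a transcription factor of the Hedgehog pathway, was higher than in young excitatory nuclei by log2 3.42 (228 against 16.0 CPM, adjusted p = 9.44e-07). Slc1a3, a glutamate transporter of glia, was higher by 1.61 than in young excitatory nuclei and lower by -2.10 than in cycling nuclei, with 348, 97.7 and 1251 CPM in Eomes-rule, young and cycling nuclei. Ptprz1 followed the same pattern, with log2 0.93 and -1.93, and its difference from young excitatory nuclei lost its call with TMM scaling (0.58, adjusted p = 0.0803). Tnc and Fabp7 were lower than in cycling nuclei by -3.20 and -2.05. Pax6 was found in 12 nuclei and Sox2 in 9, too few for a test. Of these, 7 with Pax6 and 4 with Sox2 were among the 25 nuclei of Het 3, and 5 and 5 among the other 65.

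Maml3 and Maml2 code for coactivators at Notch targets. Maml3 was above young excitatory nuclei (log2 2.17, adjusted p = 1.36e-09) and above cycling nuclei (1.09, adjusted p = 0.00167). Maml2 was above the former (0.99) and below the latter (-1.60, adjusted p = 1.45e-05), the first call being lost with TMM scaling (0.66, adjusted p = 0.0514). The effector Hes1 and the ligand Dll1 were at 0 UMIs in all 90 nuclei. Other filtered nuclei held 3.35 CPM of Hes1 and 4.25 CPM of Dll1, too little for a difference to be detectable at this depth. Rbpj, the DNA-binding partner of Notch, was above young excitatory nuclei (1.13, adjusted p = 0.0141), though not with TMM scaling (0.82, adjusted p = 0.0736) or in the 8 libraries with at least 5 Eomes-rule nuclei (1.01, adjusted p = 0.0532). In all, 3 of 6 tested Notch genes were higher and 1 lower than in young excitatory nuclei, and 1 of 9 higher and 1 lower than in cycling nuclei. The shares over all genes tested were 18.1% and 15.1% in the first comparison, and 7.34% and 8.99% in the second.

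Several transcription and chromatin factors stood far above young neurons. Chd7, a chromatin remodeller, was found in 46 of 90 nuclei and 6.68% of young excitatory nuclei, and was higher by log2 4.35 (SE 0.30, adjusted p = 2.97e-16). Sox6 stood at 946 CPM against 71.7 CPM in young excitatory nuclei (log2 3.69, SE 0.25, adjusted p = 2.02e-16) and was higher in 12 of 12 libraries. For Chd7 and Sox6, low in young excitatory nuclei, the filter partly set the direction, so both tests are descriptions. Sox5, a relative of Sox6 used by deep-layer neurons, was lower (log2 -0.88, adjusted p = 0.00551). Zbtb20, a factor of the hippocampal field and of glia, was higher by log2 2.74 (4402 against 587 CPM, adjusted p = 1.73e-12). Of the other 9 hippocampal and dentate genes, 2 passed the filter, and Meis2 (1.21) and the semaphorin receptor Nrp2 (2.02) were higher too. The last call was lost without Het 2 (1.79, adjusted p = 0.0501). Prox1, which defines dentate granule cells, was found in 6 nuclei from 3 libraries.

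Of 24 neuronal maturation genes tested, 13 were lower and 3 higher than in young excitatory nuclei (15.1% and 18.1% of all genes tested). Of 22 tested against cycling nuclei, 9 were higher and 1 lower (7.34% and 8.99% of all genes tested). Since young excitatory nuclei were chosen by Neurod2 and Neurod6, which follow maturation, the direction of the first count is partly set by that choice. Rbfox1, a splicing factor, stood at 3380 against 11302 CPM (log2 -2.11, adjusted p = 2.12e-06) and was lower in 12 of 12 libraries. Celf2, an RNA-binding protein found in all 90 nuclei, was lower by a smaller amount (-0.91, adjusted p = 0.00516). Grin2a, an NMDA receptor subunit, was found in 4 of 90 nuclei and 45.1% of the deeper young excitatory nuclei (log2 -3.97, adjusted p = 4.59e-09). Its partner subunit Grin2b was lower too (-1.71, adjusted p = 2.09e-06). Among genes of cortical layers and neuron subtypes, Mef2c, an activity-regulated factor, was lower (-2.28, adjusted p = 2.10e-06). Zfpm2 and Foxp2 of the same list gave -0.21 and 0.69 (adjusted p = 0.619 and 0.0504). The splicing factor Rbfox3, known as NeuN, and the synaptic protein gene Syn2 were higher than in either set, by log2 0.99 and 2.54 and by 1.52 and 1.77. Dcx, a microtubule protein of migrating neurons, was higher than in cycling nuclei (1.68, adjusted p = 6.07e-07) and gave log2 0.41 against young excitatory nuclei (adjusted p = 0.154).

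Of 17 newborn-neuron genes tested, 5 were higher and 6 lower than in young excitatory nuclei (18.1% and 15.1% of all genes tested). The higher ones included Nfia (log2 1.75, adjusted p = 4.19e-06) and Nfib (1.29, adjusted p = 8.05e-05), factors shared by radial glia and young neurons. Zeb2 was lower (-1.23, adjusted p = 0.000588). Gpc5 and Grm3, picked after their values had been seen, were below either set: Gpc5, a cell-surface proteoglycan, by log2 -3.56 and -3.38, and Grm3, a metabotropic glutamate receptor, by -2.65 and -3.68.

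Markers of other cell types differed in level. The 8 olfactory projection-neuron genes outside the rule summed to 572 CPM, against 507 CPM in other nuclei and 133 CPM in young excitatory nuclei. Slc17a6 and Reln, which passed the filter, were higher than in young excitatory nuclei, while Tbx21, Lhx5, Lhx1 and Barhl2 were at 0 in all 90 nuclei. By library the olfactory sum ran from 0 to 3037 CPM in WT and from 151 to 630 CPM in Het libraries, and Slc17a6 and Reln made up most of it. The 9 microglial genes summed to 22.8 CPM (38.4 CPM in other nuclei) and the 9 genes of the oligodendrocyte lineage to 79.8 CPM (105 CPM), with 5 and 4 of the genes at 0. Their sums by library did not pass 145 and 228 CPM. The 15 vascular and fibroblast genes summed to 96.9 CPM (216 CPM in other nuclei), with 7 at 0, and reached at most 262 CPM in WT and 315 CPM in Het libraries. Of 17 inhibitory genes 10 were at 0, Gad1 and Gad2 by rule, and the list summed to 727 CPM against 3843 CPM in other nuclei, with 183 to 3270 CPM in WT and 52.5 to 1041 CPM in Het libraries. The 10 Cajal-Retzius genes summed to 408 CPM, against 756 CPM in other nuclei and 107 CPM in young excitatory nuclei. Reln led them, with UMIs in 12 nuclei, and was higher than in young excitatory nuclei (log2 1.70, adjusted p = 0.0398). By library the Cajal-Retzius sum ranged from 0 to 3760 CPM in WT and from 209 to 577 CPM in Het libraries. The part of these markers in the other results was not tested.

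Cell cycle transcripts were more frequent than in young excitatory nuclei of the same libraries. That direction is partly set by choosing the latter on Neurod2 and Neurod6, which follow maturation. Each nucleus was thinned to 800 UMIs, and a nucleus was counted when at least 2 of them fell on 94 S-phase and G2/M-phase genes. This held for 52 of 90 Eomes-rule nuclei (57.8%, exact 95% interval 46.9 to 68.1%) and for 581 of 2337 young excitatory nuclei (24.9%, 23.1 to 26.7%). By library the share was 49.6% ± 26.7 (SD, n = 12) against 24.4% ± 5.34, higher in 10 of 12 libraries (exact permutation test of the paired difference, two-sided p = 0.0078). The exceptions, WT 4 and WT 6, held 0 of 2 and 0 of 4 such nuclei. Without thinning the shares were 80.0% and 80.4%, with median depths of 1635.5 and 3051 UMIs. With a UMI of Mki67 or Top2a as the criterion, 18 of 90 nuclei (20%) and 76 of 2337 (3.25%) were counted, and 6 of 12 libraries were higher (exact permutation p = 0.0552).

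Few single genes of replication and division could be tested against young excitatory nuclei, 4 of 52 G2/M genes and 2 of 42 S-phase genes. Top2a, the topoisomerase of dividing cells, was above young excitatory nuclei by log2 4.76 (228 against 5.85 CPM, adjusted p = 1.86e-06). At 5.85 CPM in the latter it could pass the filter only by being high in Eomes-rule nuclei, so the filter set this direction. Of its UMIs, 22 came from Het 3 (458 CPM) and 18 from the other libraries (141 CPM). It was tested in 10 of the fits that left out 1 library. The S-phase genes were Pola1, a DNA polymerase subunit (0.84), and Nasp, a histone chaperone (0.98), and both calls were lost with TMM scaling (0.53, adjusted p = 0.171, and 0.68, adjusted p = 0.109). Pola1 was also lost without Het 1 (0.77, adjusted p = 0.0564) or Het 2 (0.79, adjusted p = 0.0507), and Nasp without WT 1 (0.89, adjusted p = 0.0534). Against cycling nuclei 17 of 21 G2/M genes and 2 of 5 S-phase genes were lower (8.99% of all genes tested). This direction is partly set by choosing those nuclei on Mki67 and Top2a.

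The 18 nuclei with Mki67 or Top2a differed from the other 72 in the rest of their transcripts, as a description. Myt1l was found in 5 of the 18 (379 CPM) and in 49 of the 72 (1144 CPM). The median depth was 1895 UMIs in the 18 and 1517.5 UMIs in the 72. Gli3 was found in 9 of 18 and 17 of 72 nuclei, Pax6 in 6 and 6, and Lama2 in 13 and 30. Dcc stood at 17094 CPM in the 18 and 11517 CPM in the 72, whereas Unc5d stood at 2489 and 4103 CPM. Of the 18, 14 came from Het libraries (9 of them from Het 3) and 4 from WT libraries, and 6 libraries gave any. The contrast of 18 with 72 nuclei is therefore in part one of genotype and of libraries, and their part in it was not tested.

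**Figure D3:**
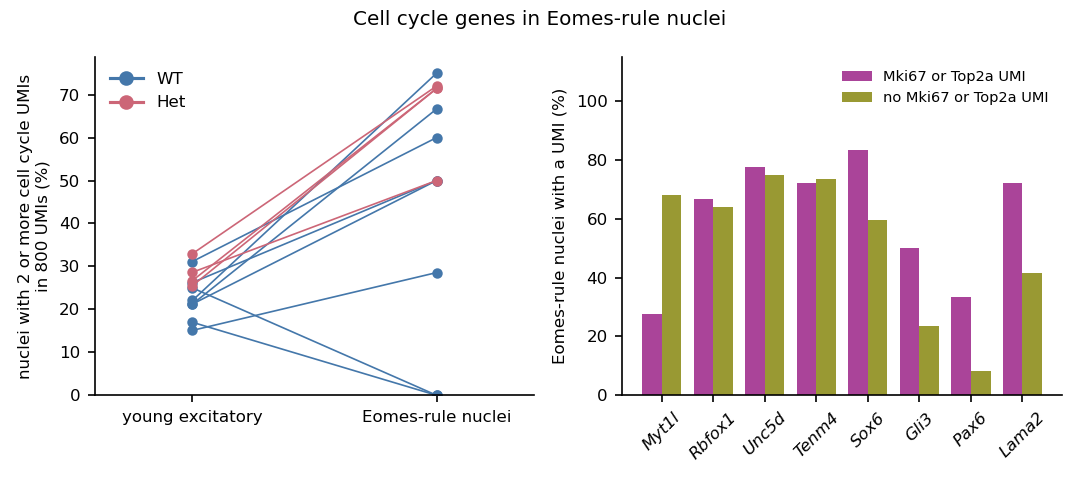
Left, the percent of nuclei with at least 2 cell cycle UMIs after thinning, with 1 line per library (WT blue, Het red), higher in Eomes-rule nuclei in 10 of 12 libraries. Right, bars give the percent of the 18 Eomes-rule nuclei with a Mki67 or Top2a UMI and of the 72 without that held a UMI of each gene, with Myt1l in 27.8% of the former and 68.1% of the latter.

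Values of some genes just inside and outside the threshold formed a gradient, given here without a test because the rule set it. The 444 nuclei with a sum of 1 over the admitting genes held 5823 CPM of Dcc and 847 CPM of Gm29260, between the 2381 and 283 CPM of the 26186 nuclei with none and the 10838 and 2430 CPM of the 68 nuclei with a sum of 2. The 22 nuclei with 3 or more held 19125 CPM of Dcc and 3749 CPM of Gm29260. Myt1l fell in value along the same series, at 1666, 1632, 1105 and 561 CPM, and Rbfox1 at 9946, 8308, 3839 and 1785 CPM. Not all genes stepped in 1 direction, as Slc1a3 stood at 221, 140, 308 and 485 CPM and Sox2 at 10.6, 9.59, 29.4 and 153 CPM.

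The 8 nuclei admitted without an Eomes UMI differed in value from the 60 admitted by Eomes alone in some genes and not in others. They held 943 against 2991 CPM of Gm29260, 6303 against 12462 CPM of Dcc, 2680 against 6680 CPM of Mir99ahg and 199 against 918 CPM of Sox6, the last from 4 UMIs. Rbfox1 stood higher in them, at 8586 against 3168 CPM. Close values were 3822 against 3742 CPM of Unc5d, 943 against 1050 CPM of Myt1l and 397 against 382 CPM of Sema3c.

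How Myt1l heterozygosity affects these nuclei was the question of the genotype comparison, with the library as unit. WT libraries 1 to 8 held 10, 5, 7, 2, 2, 4, 3 and 8 Eomes-rule nuclei and Het libraries 1 to 4 held 7, 10, 25 and 7. The share of filtered nuclei averaged 0.0740% ± 0.0483 among the 8 WT libraries and 0.112% ± 0.0681 among the 4 Het libraries (SD). Het 3 had the highest share of all 12 (0.213%, exact 95% interval 0.138 to 0.314%) and WT 8 the next (0.167%, 0.0720 to 0.328%). The groups overlapped, and the difference did not pass the exact permutation test (two-sided p = 0.279, adjusted p = 0.558 over 8 measures). The Het minus WT difference of 0.0383 percentage points was 0.00477 without Het 3 and -0.00113 when a sum of at least 3 admitting UMIs was asked for.

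Counted per 100 Eomes-rule and young excitatory nuclei, WT libraries held 0.980 to 4.79 with a median of 2.66, and Het libraries held 3.83, 4.22, 8.56 and 3.45. All 4 Het libraries were above the WT mean of 2.74 ± 1.33 (SD, n = 8), and their own mean was 5.01 ± 2.39 (SD, n = 4). WT 2, WT 3 and WT 8 lay within the Het range (exact permutation p = 0.0808, adjusted p = 0.291). Leaving out Het 3, it fell from 2.27 to 1.09 per 100 (exact permutation p = 0.242), and without WT 3 it was 2.56 (exact permutation p = 0.0303, not adjusted).

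**Figure D4:**
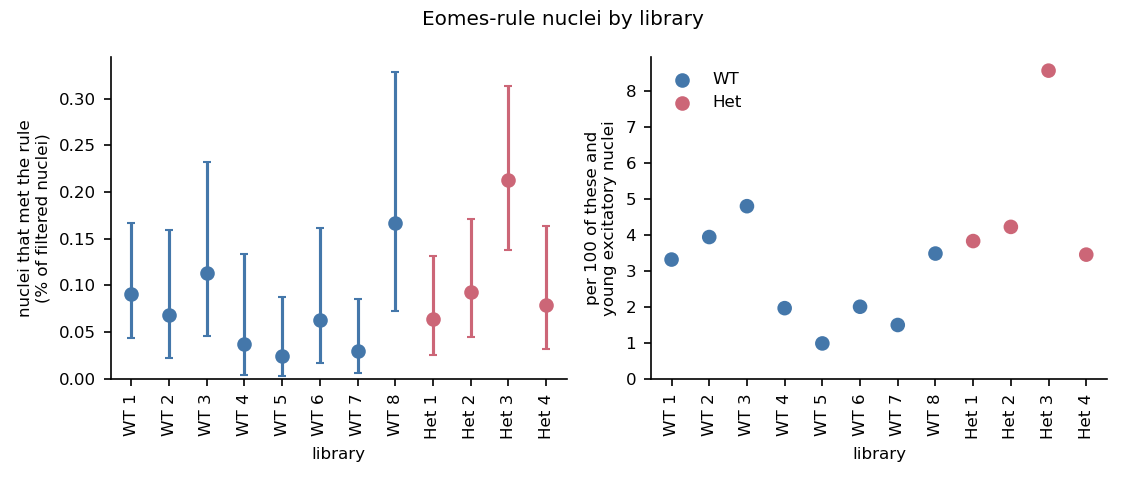
Left, Eomes-rule nuclei as a percent of filtered nuclei in each library, with exact 95% binomial intervals as bars. Right, their number per 100 Eomes-rule and young excitatory nuclei, without error bars, with Het 3 highest at 8.56 in the right panel and at 0.213% in the left.

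Among Eomes-rule nuclei the share with at least 2 cell cycle UMIs averaged 41.3% ± 28.9 over the 8 WT libraries and 66.2% ± 10.8 over the 4 Het libraries (SD). WT libraries ranged from 0 to 75.0% and Het libraries from 50.0 to 72.0%, so the groups overlapped (exact permutation p = 0.109, adjusted p = 0.291). Young excitatory nuclei of the same libraries gave 22.4% ± 5.12 and 28.5% ± 3.27 (exact permutation p = 0.0606, adjusted p = 0.291). Without WT 8 the difference in Eomes-rule nuclei was 29.8 percentage points and without Het 2 30.3 (exact permutation p = 0.0485 each, not adjusted). Without thinning it turned to -0.190 (exact permutation p = 0.970). Median UMIs of Eomes-rule nuclei were 1959 ± 757 in WT and 1680 ± 148 in Het libraries (exact permutation p = 0.578), and mitochondrial UMIs 0.182% ± 0.0748 and 0.222% ± 0.0979 (exact permutation p = 0.440).

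Gene by gene, 0 of 178 genes tested in Eomes-rule nuclei were called between Het and WT (0% in either direction). Quasi-likelihood fits in edgeR on UMIs summed per library were used, with an adjusted p under 0.05 and a log2 difference of at least 0.2. At an unadjusted p under 0.05 it gave 6 genes, and DESeq2 called 0 with 9 genes at an unadjusted p under 0.05. The smallest adjusted p was 0.891. Summed UMIs per library ran from 4382 in WT 7 to 48045 in Het 3, and only genes with enough UMIs in these sums could be tested, so differences in most genes were not detectable at this depth.

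Myt1l itself stood at 1256, 1370, 1446, 773, 723, 2013, 0 and 1173 CPM in Eomes-rule nuclei of WT libraries 1 to 8 and at 836, 1102, 624 and 867 CPM in Het libraries 1 to 4. The groups overlapped, with log2 -0.33 for Het against WT (SE 0.40, edgeR adjusted p = 0.891), and from -0.44 without WT 7 to -0.17 without Het 3. In all other nuclei Myt1l stood at 1266 to 1610 CPM in WT and at 1534 to 1642 CPM in Het libraries, which overlapped. A frameshift need not lower the count of transcripts, and the genotype was not checked here.

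**Figure D5:**
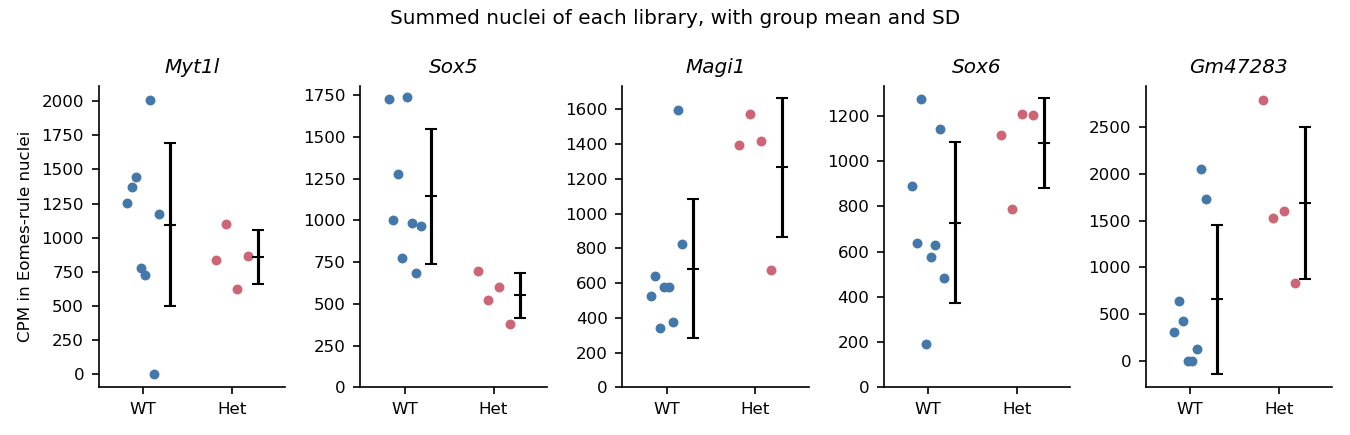
CPM in the summed Eomes-rule nuclei of each WT and Het library for Myt1l and for 4 of the genes with the smallest p, with group mean and SD beside the points. Het points overlapped WT points in each of the 5 genes, and none passed the test.

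The 10 genes with the smallest p are given as values that did not pass. Sox5 stood at 685 to 1736 CPM in WT and at 697, 525, 604 and 377 CPM in Het libraries, which overlapped by Het 1 alone (log2 -0.99, SE 0.34, edgeR adjusted p = 0.891). Magi1, a scaffold gene of cell junctions, stood at 340 to 1597 CPM in WT and at 1394, 1575, 1415 and 678 CPM in Het libraries (log2 1.06, SE 0.39). Among male libraries alone Magi1 and Dach1 were called (1.65, adjusted p = 0.0366, and 2.49, adjusted p = 0.0390). The other 8 of the 10 were Ntm (-1.40), Gm47283 (1.46), Egfem1 (1.13), Anks1b (-0.81), Il1rapl1 (1.06), Sox6 (0.64), Dach1 (1.39) and Astn1 (0.88). Anks1b was -0.52 without Het 1. In young excitatory nuclei, where 6 of 7385 genes were called (0.0812%, with 0.0406% higher and 0.0406% lower), Sox6 gave 1.44 (SE 0.29, adjusted p = 0.113) and Sox5 -0.42 (SE 0.15, adjusted p = 0.383), and neither was called.

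Gm47283 is annotated on chromosome Y, but the female libraries WT 6, WT 7, WT 8 and Het 4 held 126, 2054, 1724 and 829 CPM of it in Eomes-rule nuclei, and its reads cannot be told apart here from those of similar copies elsewhere. In all other nuclei it ranged from 94.3 to 738 CPM in WT and from 891 to 1180 CPM in Het libraries. Its difference was called in 3 alternatives: among male libraries (log2 2.79, adjusted p = 0.0366), with 4 numbered pairs as block (2.40, adjusted p = 0.0310) and in the same 8 libraries with no block (2.36, adjusted p = 0.0231).

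Within the lists, none of the genes with the smallest p was called. Nfia gave log2 0.95, Lrrtm4 0.62 and Zbtb20 0.47, while Nrxn3 gave -0.75, Robo1 -0.71, Zeb2 -0.52, Maml3 -0.51 and Foxp2 -0.26. Dcc gave 0.33, Meis2 -0.08 and Ptprz1 0.05. Leaving out 1 library moved several of these: Dcc from 0.20 without WT 5 to 0.57 without WT 3, Zbtb20 from 0.086 without Het 3 to 0.75 without WT 7, Lrrtm4 from 0.18 without Het 1 to 0.89 without Het 3, Maml3 from -0.96 without Het 2 to -0.25 without Het 1, and Nrxn3 from -0.99 without Het 1 to -0.39 without WT 7. Zeb2 ranged from -0.69 to -0.27, and the signs of Foxp2, Meis2 and Ptprz1 also turned. No gene was called for a genotype effect that differed between Eomes-rule and young excitatory nuclei: the test of that difference called 0 of 3152 genes, 0% in either direction (edgeR, smallest adjusted p = 0.0624, 192 genes at an unadjusted p under 0.05). It called Mctp1 or Hs3st4, chosen after their values were seen, when WT 3, WT 5, WT 7 or Het 1 was left out, with 1 or 2 calls each. On simulated counts with a preset spread, the same test called 0 of 57 tested genes changed 2-fold. It called 12 of 49 changed 4-fold and 27 of 51 changed 8-fold. Differences of these sizes could therefore be missed, and the count of 0 does not show that they are absent.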

How the data were processed

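Nuclei of 12 P1 mouse forebrains, 8 WT and 4 Het, were profiled by the authors with a split-pool kit and quantified with ScaleRna on mm10, and Seurat 4.3.0 is named in their processing notes. The deposited matrices hold expected counts, unnormalized, in which 6.74 to 7.05% of entries per library are not whole, as when UMIs that fit several genes are divided. Sums per library and set were rounded to whole numbers, because the planned tests assumed counts. Libraries held 15439400 to 40784100 UMIs.

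Groups followed the labels. Het and WT were compared with edgeR 4.0.16 (R 4.3.3, quasi-likelihood test, TMM scaling, Benjamini-Hochberg adjusted p under 0.05, log2 of at least 0.2) and with two-sided exact permutation tests over libraries (scipy 1.17.1). Sets of nuclei were compared with library totals as scale. DESeq2 1.42.0, other filters, sex, pairing, thinning and leaving out each library were alternatives. The scripts were tested on simulated data.

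The rule for the nuclei, the gene lists and the tests were chosen with earlier results of these data known. Named genes were the 20 leading genes, the 3 highest and the 2 of smallest genotype p in each list and the 10 of smallest genotype p. Some genes named by this rule are not reported here. Doublets were scored against simulated ones (5% marked per library). Gene positions came from GENCODE M21, which matched 55154 of 55335 identifiers.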

Additional observations from a re-analysis of the deposited data

Results flagged for a closer look

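Of 32 groups of libraries checked over 16 values per library, 4 held a library that stood far from the rest of its group by Dixon's criterion, and chance alone flags about 1 in 20 groups. Het 3 held 8.56 Eomes-rule nuclei per 100 Eomes-rule and young excitatory nuclei, where the other Het libraries held 3.45 to 4.22. Het 2 had 50.0% of its Eomes-rule nuclei with at least 2 cell cycle UMIs, where the other Het libraries had 71.4 to 72.0%. WT 7, with 3 Eomes-rule nuclei, stood apart in Magi1 (1597 CPM against 340 to 828 CPM in the other WT libraries) and in Gm29260 (6846 CPM against 1132 to 3518 CPM).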

How the results depend on the processing

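Of 161 alternative values of the compared measures, 144 were unchanged. For shares and depths this meant the same direction and side of the threshold, as held for 1452 of 1504 values of named genes. Counts of called genes were taken as unchanged when their total stayed close, with no check of direction. With TMM scaling the split against young excitatory nuclei went from 348 higher and 291 lower to 163 higher and 428 lower. The Het minus WT share of Eomes-rule nuclei (0.0383 percentage points) turned to -0.00113 with a sum of at least 3 admitting UMIs and ranged from 0.00477, without Het 3, to 0.0544 over the libraries left out. The difference per 100 nuclei ranged from 1.09 to 2.79 over the libraries left out, and passed the exact test without WT 3 (2.56) and with Sstr2 left out of the sum (2.09). The cycling share difference was -0.190 without thinning, 29.8 without WT 8, 30.3 without Het 2, and 19.0 to 30.3 over the libraries left out. Against young excitatory nuclei it was 14.4 with Mki67 or Top2a as criterion. Without each library 534 to 649 genes were called against young excitatory and 324 to 367 against cycling nuclei, and 579 against cycling nuclei with genes of at least 50 CPM.

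The count of 0 genotype genes was 1 with a replicate block of 4 pairs (Gm47283, log2 2.40), 1 in the same 8 libraries with no block (2.36), 3 among males (Magi1 1.65, Gm47283 2.79, Dach1 2.49), 2 with no filter on low counts (Mctp1 and Nr3c2), and 0 without any 1 library. Correlations of same-numbered libraries were -0.277, -0.0281, 0.0734 and 0.220, and 0 of 4 Het libraries correlated best with its own number. Het 4 came close, with 0.220 for its own number, WT 6, and 0.231 for WT 3. Over 4 pairs such correlations cannot exclude that numbered libraries share a litter or handling. The count for genotype by set of nuclei ranged from 0 to 2 without each library and was 1 with no filter (Bnc2).

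Several uncalled genotype values turned sign. In the 18 of 90 Eomes-rule nuclei, from 8 libraries, with fewer than 2 cell cycle UMIs before thinning, Zbtb20 was -0.30, Robo1 0.079, Dcc -0.35 and Meis2 0.18. With the block, in the same libraries without it and in libraries with at least 5 Eomes-rule nuclei, Nrxn3 was 0.73, 0.65 and 0.72 and Dcc -0.088, -0.077 and -0.086. Dcc was -0.0025 with equal numbers of nuclei drawn. Meis2 was 0.25 among males, 0.16 with a sum of at least 3, 0.057 with no demand on Sox11 and 0.21 with no filter, and Foxp2 was 0.10 with a sum of at least 1 and 0.28 with no filter. Ptprz1 was -0.015 with the stricter ratio of genes to UMIs, -0.0028 without doublets, -0.030 with DESeq2, -0.021 with its size factors and -0.037 in libraries with at least 5 Eomes-rule nuclei. Over the libraries left out, Meis2 ranged from -0.24 to 0.11, Foxp2 from -0.48 to 0.011 and Ptprz1 from -0.33 to 0.32. The cause was not tested for any of these. With 2 to 25 Eomes-rule nuclei per library, depth limits the genotype tests to abundant genes.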

Other observations

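Sox2, a factor of neural stem cells, was chosen here after its values had been seen and was too low for a test. Its UMIs in Eomes-rule nuclei came from Het libraries only, with 2, 2, 5 and 1 UMIs in Het 1 to 4 (139, 105, 104 and 75.4 CPM) and 0 in each of the 8 WT libraries. How many other genes of similar level were split in this way was not counted. The 18 nuclei with Mki67 or Top2a, 14 of them from Het libraries, held 5 of these UMIs, and the other 72 nuclei held 5. The summed UMIs of Eomes-rule nuclei were larger in Het libraries, at 13268 to 48045, than in most WT libraries, at 4382 to 19111. The 16 radial glial genes, of which Sox2 is 1, did not separate the groups, with sums of 193 to 3242 CPM in WT and 1260 to 3166 CPM in Het libraries. Ptprz1, the 1 gene of the list tested between genotypes, gave log2 0.05 (SE 0.52, edgeR adjusted p = 0.992). In cycling nuclei of the same libraries Sox2 stood at 24.2 to 118 CPM in WT and 49.4 to 80.2 CPM in Het libraries, which overlapped.

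The 6 nuclei with a Prox1 UMI came from 3 libraries. They held 1913 CPM of Sox6 and 17342 CPM of Dcc, and 6 of 6 held an Eomes UMI. The 16 nuclei with both Eomes and Neurog2 held 19607 CPM of Dcc, 489 CPM of Myt1l and 908 CPM of Rbfox1, against 12462, 1050 and 3168 CPM in the 60 nuclei with Eomes alone. These are descriptions of few nuclei without a test.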
